A study of Mus musculus with 76 samples.

Results

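Glutathione transferases join the tripeptide glutathione to electrophilic compounds, which makes these compounds more soluble and readies them for export. The cytosolic enzymes form classes named alpha, mu, pi and theta, and a separate family, the microsomal glutathione transferases, sits in membranes. Liver is known as a major site of this chemistry, and several of the genes are known as targets of the transcription factor Nrf2. The set described here held 10 genes of the 25567 in the files: Gsta2, Gsta3 and Gsta4 (alpha), Gstm1, Gstm2 and Gstm3 (mu), Gstp1 (pi), Gstt1 (theta) and the microsomal Mgst1 and Mgst2. They were taken from a fixed list of symbols matched to gene identifiers with GENCODE M21, and all 10 were found. The genes were selected on family membership with results of these libraries already known, among them the call of Gsta2 between male livers of both genotypes. Which other measured values they were chosen by is not recorded, so levels by tissue and the values of male liver by genotype are given as a description with no test. Tests of sex, and of genotype elsewhere, are given, but selection of the members on those values is not excluded either.

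The 76 libraries came from whole brain, liver, ovary and testis of lab-reared house mice (Mus musculus domesticus) descended from wild-caught animals and kept until sexual maturity. Every animal belonged to a pair of siblings of the same sex, in which 1 carried a t haplotype (+/t) and the other did not (+/+). The t haplotype is a selfish variant of proximal chromosome 17 known for its transmission advantage through heterozygous fathers. The labels name no treatment. Per genotype there were 5 male and 7 female libraries of brain, 7 male and 6 female libraries of liver, 7 of ovary and 6 of testis, and exact ages were not given. The libraries held between 8266183 and 45203167 counts each. In 7 libraries 59.3% to 68.1% of the counts between 20 and 500 were even numbers, against 48.7% to 51.2% in the others, and the titles of male liver pair 3 bear animal numbers that go with the opposite genotype elsewhere in the series. The genotype labels were kept, and results that change without or with exchange of these libraries are named.

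No member lies on chromosome 17. In GRCm38 with GENCODE M21, Gstm3 (3:107963696-107969283), Gstm2 (3:107981702-107986453) and Gstm1 (3:108012255-108017973) follow each other on the minus strand of chromosome 3. Mgst2 is on the same chromosome (3:51660360-51682677, plus strand). Gsta2 (9:78331018-78355788, minus strand) and Gsta4 (9:78182774-78209349, plus strand) share chromosome 9, and Gsta3 is on chromosome 1 (1:21240589-21265661, plus strand). Gstp1 is on chromosome 19 (19:4035407-4037985, minus strand), Gstt1 on chromosome 10 (10:75783813-75798584, minus strand) and Mgst1 on chromosome 6 (6:138140316-138156755, plus strand). Some counts are uncertain because of near copies. The Gsta2 transcript matched that of Gm10639 at 98.2% over 869 bases, and Gstp1 matched Gstp2 at 94.2% over 798 bases. Gstm1 matched Gstm2-ps1 at 97.9% over 657 bases, and Gstm3 matched Gm8834 at 97.9% over 567 bases. Neither of these copies is among the genes of the files. Gstm1 also matched Gstm3 at 85.9% over 1173 bases and Gstm2 at 86.9% over 649 bases. In liver the median level of Gm10639 was 0.307 CPM (counts per 1000000 gene counts of a library) in males, against 18.9 CPM for Gsta2.

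Liver held the most glutathione transferase RNA. The 10 members together had a median of 6375 CPM in male liver (5790 to 7287, n = 14) and 4741 CPM in female liver (4227 to 5267, n = 12). The ovary sum was 1426 CPM (n = 14), testis 442 CPM (n = 12), female brain 418 CPM (n = 14) and male brain 382 CPM (n = 10). By median over the libraries of a tissue, 7 members were highest in liver, and Gsta4, Gstm2 and Mgst2 were highest in ovary. The ovary libraries also held markers of other tissue. There 4 oviduct markers summed to 2083 to 4634 CPM in +/+ and 1599 to 5003 CPM in +/t, against 99.8 to 139.7 CPM in +/+ testis. The sums of 5 adipocyte markers were 240.6 to 746.6 CPM in +/+ ovary and 219 to 1262 CPM in +/t ovary. The part of such tissue in the ovary levels was not tested. Ranges without overlap are common between tissues. Of all genes with a mean of at least 1 CPM, 74.8% did not overlap between male liver and ovary, 75.8% between female liver and ovary, 78.3% between ovary and testis and 67.2% between ovary and female brain. The share was 79.5% between testis and male brain, 77.6% between testis and female brain, and 68.7% and 67.1% between male liver and the male and female brain. Between the livers of both sexes it was 1.8%.

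Mgst1, which encodes a membrane-bound enzyme of the endoplasmic reticulum and mitochondria, was the most abundant member of liver. Male livers had 2634 to 3430 CPM (median 3223), female livers 1678 to 2473 CPM (2303) and ovaries 271 to 487 CPM (324). Testis followed at 18.7 to 38.8 CPM (24.3), and female and male brain had 11.2 and 10.2 CPM. All neighbours in this order were free of overlap except the brains of both sexes. Gsta3, an alpha-class enzyme known in mouse for conjugating aflatoxin epoxide, had 844 to 1433 CPM in female liver (median 1224) and 916 to 1394 in male liver (1155). The ovary median was 18.7 CPM, that of testis 10.9, and those of male and female brain 1.10 and 1.09. Liver therefore stood clear of every other tissue for Gsta3, while the livers of both sexes overlapped.

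Of the 9 members with a RefSeq promoter entry (GRCm38.p6), these are the ones that hold TGACNNNGC, 1 form of the antioxidant response element core. Nrf2 binds this element, and other forms of its core were not searched. Gstm1 and Mgst1 have 2 promoter entries each, and entry 1 of Mgst1 holds the letters. The search covered both strands in the 250 bases before the start, where 10.1% of all promoters hold these letters. They are in capitals below, read along the gene's strand, for Gsta3 (chr1:21240335-21240584, plus strand) and Mgst1 (chr6:138140277-138140526, plus strand), where the match is on the opposite strand.
Gsta3: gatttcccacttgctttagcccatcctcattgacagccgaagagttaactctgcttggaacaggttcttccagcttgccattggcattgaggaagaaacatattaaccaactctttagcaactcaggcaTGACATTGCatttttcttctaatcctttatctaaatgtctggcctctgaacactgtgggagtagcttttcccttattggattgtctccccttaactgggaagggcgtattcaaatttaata
Mgst1: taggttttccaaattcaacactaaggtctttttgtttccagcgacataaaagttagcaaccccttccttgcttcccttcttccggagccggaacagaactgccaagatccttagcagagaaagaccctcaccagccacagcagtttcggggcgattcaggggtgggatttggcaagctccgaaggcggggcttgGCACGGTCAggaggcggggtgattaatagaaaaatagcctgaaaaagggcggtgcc

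Gstm1, a mu-class enzyme, was present in every tissue. Male liver had a median of 1109 CPM, followed by 832 for female liver, 471 for ovary, 293 and 251 for female and male brain and 219 for testis. Liver did not overlap with ovary, whereas ovary, brain and testis formed a chain of overlapping ranges. Gstm2 was highest in ovary at 336 to 586.5 CPM (median 442), above testis at 117 to 225 CPM (144) with no overlap. Its medians were 94.7 and 84.8 CPM in the livers of females and males, and 2.46 and 2.31 CPM in their brains. Gstm3 was highest in liver, with 30.4 to 134 CPM in males and 18.0 to 62.5 CPM in females. Elsewhere its medians were between 0.0453 and 0.173 CPM, and 13 of those 50 libraries had no count.

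Gstp1, the pi-class enzyme, had 469 to 994 CPM in male liver (median 654). Male brain (60.1 CPM), female brain (59.0), female liver (51.3) and ovary (44.8) followed with overlapping ranges, and testis was lowest at 8.09 CPM. Female liver therefore lay among brain and ovary, and male liver stood apart from them all. Gstt1, a theta-class enzyme known for acting on halogenated methanes, had 196 to 322 CPM in female liver (median 208) and 69.5 to 179 in male liver (89.9). Ovary had a median of 22.8 CPM, followed by 10.7 and 9.48 for female and male brain and 1.22 for testis, and the only overlap between neighbours was that of the brains.

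Gsta4, known for conjugating the lipid peroxidation product 4-hydroxynonenal, was the most even member. Ovary led with a median of 99.8 CPM, then came female liver with 63.6, male liver with 47.1, female and male brain with 45.9 and 45.6 and testis with 31.6, and every neighbour overlapped. Gsta2, an alpha-class enzyme known to be inducible, had medians of 18.9 and 17.9 CPM in male and female liver, 5.94 in testis and 3.57 in ovary. It was under 0.5 CPM in brain. Mgst2, known for making leukotriene C4, was near the floor in liver, with 9 of 26 libraries at 0 and none above 0.212 CPM. Ovary had 4.22 to 21.5 CPM (median 13.6) and testis 2.99 to 6.76 CPM (4.23).

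**Figure D1:**
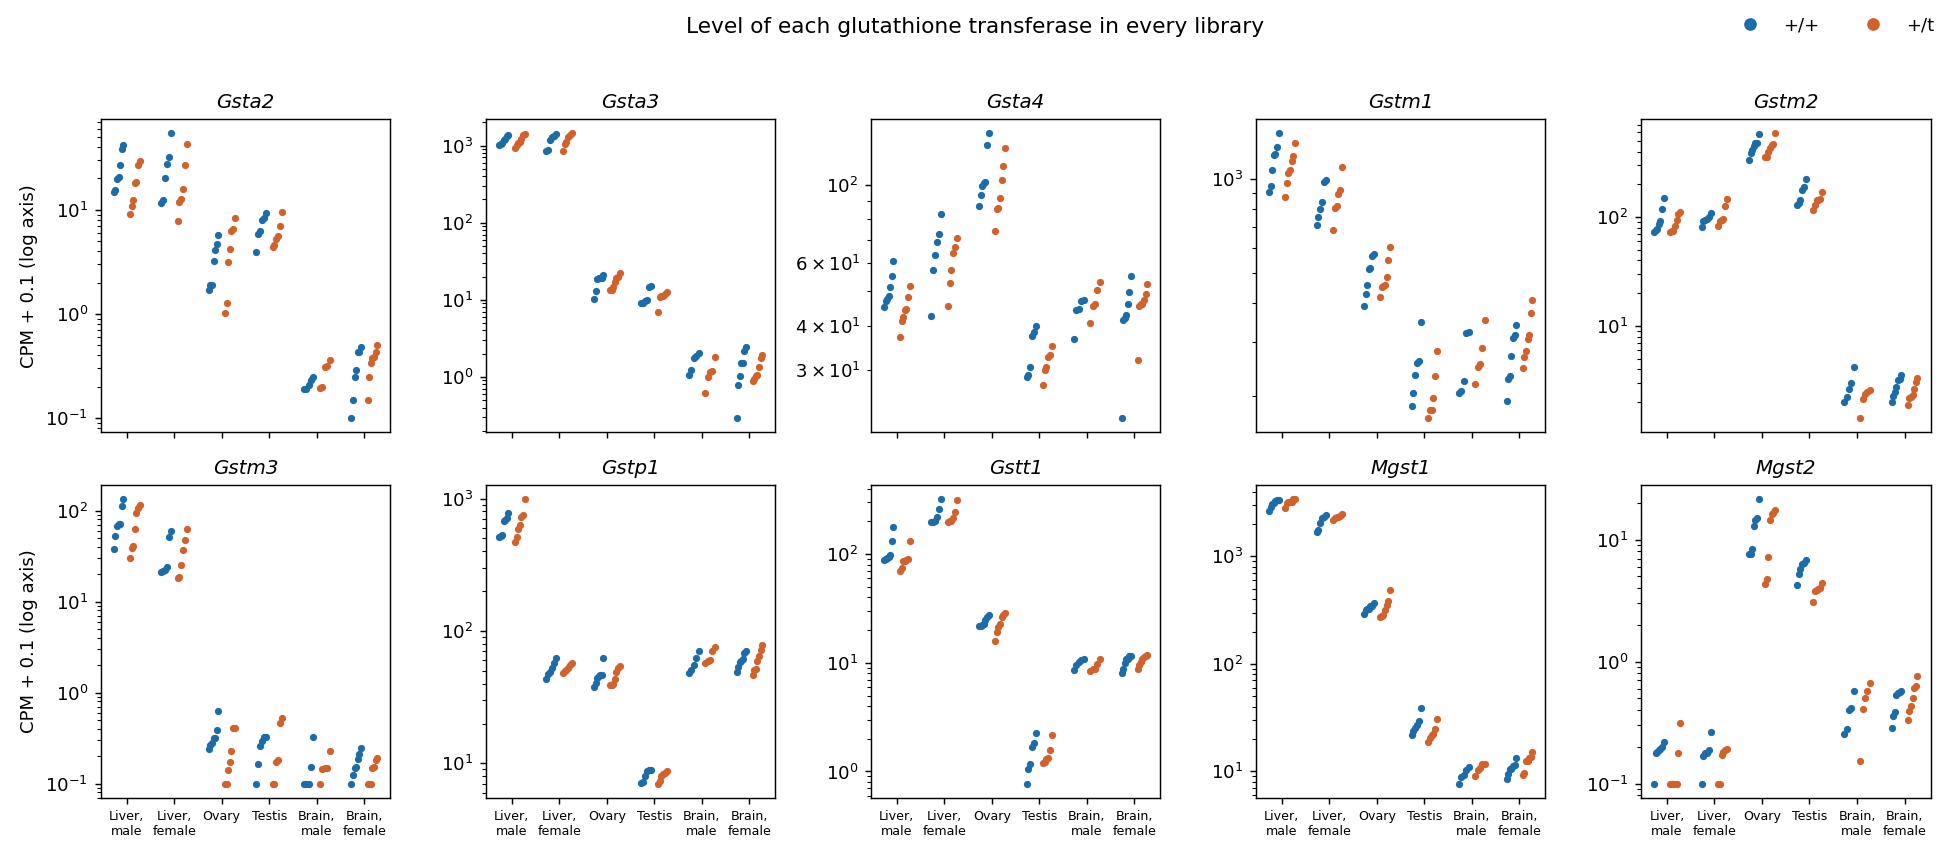
Level of each member in every library, as CPM + 0.1 on a log axis, by tissue and sex, with +/+ in blue and +/t in orange. Male liver stands apart from female liver for Gstp1 (469 to 994 against 43.5 to 62.4 CPM), and Mgst2 is near the floor in liver.

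Which member led differed by tissue. After division by exon length, Mgst1 made up a median of 47.9% of the summed counts per kilobase of the 10 members in male liver and 48.6% in female liver. Gstm1 made up 65.8% in male brain, 68.7% in female brain, 50.5% in testis and 38.2% in ovary. Gstm2 was the second member of both gonads, at 31.1% in testis and 29.2% in ovary. Gstp1 held 12.5% in male liver and 1.43% in female liver, and Gstt1 held 1.86% and 6.32%.

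**Figure D2:**
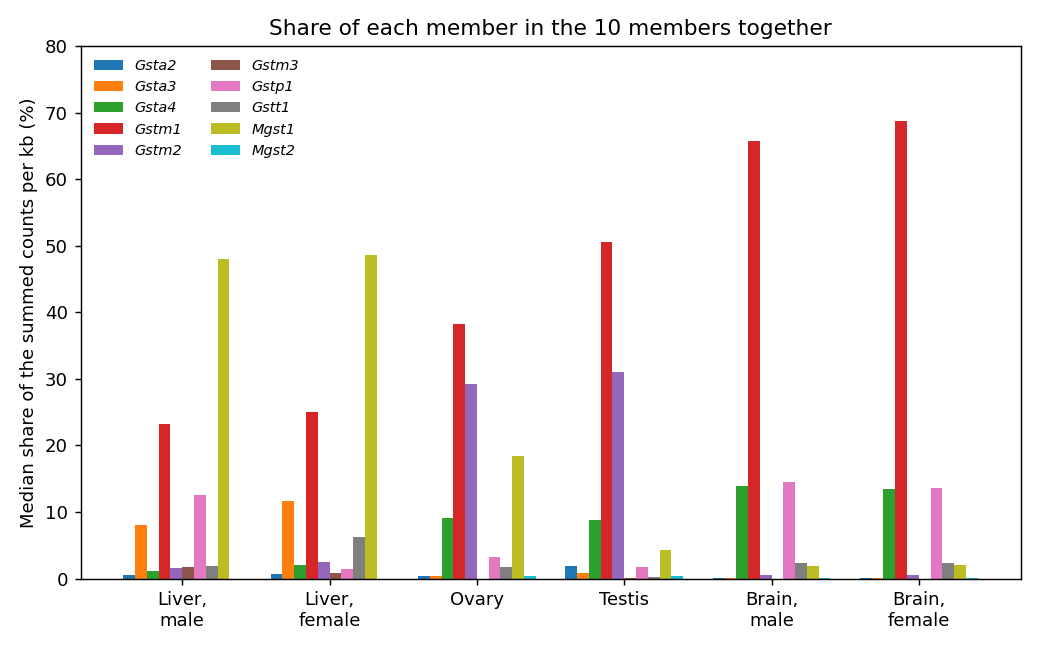
Median share of each member in the summed counts per kilobase of the 10 members, in percent, for each tissue and sex (n = 10 to 14 libraries). Mgst1 leads in liver (47.9% and 48.6%) and Gstm1 in ovary, testis and brain (38.2% to 68.7%).

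Male and female livers were compared separately in +/+ and in +/t animals, which are siblings and so share litters. Of the 9 members tested in +/+ livers, 4 were higher and 1 was lower in males, and in +/t livers 2 were higher and 2 lower. Over all genes tested, 12.5% were called in +/+ livers (5.97% higher and 6.53% lower in males) and 12.1% in +/t livers (6.06% higher and 6% lower). With the litter as a block, which only 4 litters with both sexes support, the calls went from 1512 to 605 genes in +/+ and from 1460 to 633 in +/t, with 4 members among them in each. Calls are at an adjusted p under 0.05 in edgeR's quasi-likelihood test, adjusted by Benjamini-Hochberg over all genes tested, and Mgst2 was too low to test. The median log2 difference of the 9 members, males minus females, was 0.04 in +/+ and -0.01 in +/t, against 0.00 over all genes in both.

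Gstp1 had the largest difference of the members. In +/+ livers males had 516 to 771 CPM (median 672, n = 7) and females 43.5 to 62.4 CPM (50.4, n = 6). In +/t livers males had 469 to 994 CPM (636, n = 7) and females 48.2 to 57.3 CPM (51.6, n = 6). Every male was above every female in both genotypes, which 3.9% of genes showed in either direction in +/+ livers and 4.11% in +/t livers. Males were 12.2-fold higher in +/+ (log2 difference 3.60 ± 0.13 SE, edgeR adjusted p = 8.7e-12) and 12.8-fold higher in +/t (3.68 ± 0.17, edgeR adjusted p = 5.9e-10).

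The neighbouring pi-class gene Gstp2, whose transcript resembles that of Gstp1, was also higher in males, with log2 differences of 1.65 ± 0.22 SE in +/+ (edgeR adjusted p = 1.1e-04) and 1.58 ± 0.14 in +/t (edgeR adjusted p = 1.3e-06). Its level was low, at medians of 5.06 CPM in male and 1.51 CPM in female liver, so reads of Gstp1 placed on Gstp2 cannot be told apart from its own. Gstp3, the third pi-class gene of that cluster, was not called by sex (edgeR adjusted p = 0.77 and 0.70). In +/t its log2 difference was -1.01 ± 1.37 SE, so a sex difference was not excluded. Gstp3 took separate levels within each sex, as given under Other observations. The 250 bases before the RefSeq starts of these genes are shown because they tell which of the cluster share promoter letters. All are on the minus strand of GRCm38.p6, Gstp1 at chr19:4037913-4038162, Gstp2 at chr19:4042222-4042471 and Gstp3 at chr19:4059448-4059697, and capitals mark the AP-1 letters TGANTCA, found on either strand in 6.87% of all promoters.
Gstp1: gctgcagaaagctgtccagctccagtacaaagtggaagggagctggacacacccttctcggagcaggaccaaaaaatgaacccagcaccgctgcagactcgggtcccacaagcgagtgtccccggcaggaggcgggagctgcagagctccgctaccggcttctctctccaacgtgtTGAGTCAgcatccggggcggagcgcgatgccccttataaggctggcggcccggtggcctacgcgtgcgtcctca
Gstp2: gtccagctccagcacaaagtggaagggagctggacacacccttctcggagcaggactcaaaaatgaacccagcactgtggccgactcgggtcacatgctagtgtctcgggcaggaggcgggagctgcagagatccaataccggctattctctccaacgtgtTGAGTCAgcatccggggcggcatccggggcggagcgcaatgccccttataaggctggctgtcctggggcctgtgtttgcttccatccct
Gstp3: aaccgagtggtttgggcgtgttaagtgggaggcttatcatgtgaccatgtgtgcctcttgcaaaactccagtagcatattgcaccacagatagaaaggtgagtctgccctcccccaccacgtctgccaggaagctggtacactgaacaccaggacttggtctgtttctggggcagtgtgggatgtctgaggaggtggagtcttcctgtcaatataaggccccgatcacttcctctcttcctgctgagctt
Gstp1 and Gstp2 were identical at 78.1% of aligned positions, whereas Gstp3 matched them at 46.0% and 45.1%. The AP-1 letters stood 74 bases before the start of Gstp1 and 89 before that of Gstp2, and Gstp3 held none in this window. Among the other members Mgst2 also held them, 52 bases before its start. They were added to the search after the sequences had been read. The letters TTCNNNGAA, bound by the growth hormone effector STAT5 and held by 7.18% of promoters, were in none of the 9 members' windows. At that share few matches are expected in so few windows, and sites farther away were not searched.

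Mgst1 was higher in males by less but as evenly. Males had 2634 to 3354 CPM in +/+ (median 3170) and females 1678 to 2451 CPM (2174). In +/t the ranges were 2835 to 3430 CPM (3227) and 2195 to 2473 CPM (2324). The sexes did not overlap in either genotype, and the log2 difference was 0.57 ± 0.10 SE in +/+ (edgeR adjusted p = 0.0014) and 0.47 ± 0.07 in +/t (edgeR adjusted p = 1.7e-04).

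Gstt1 went the other way. Males had 88.0 to 179 CPM in +/+ (median 93.4) and females 196 to 322 CPM (212). In +/t males had 69.5 to 133 CPM (87.2) and females 198 to 313 CPM (208). Again the sexes did not overlap. The log2 difference was -1.08 ± 0.17 SE in +/+ (edgeR adjusted p = 9.0e-04) and -1.35 ± 0.13 in +/t (edgeR adjusted p = 3.6e-06). Gstt3, another theta-class gene, differed more, by -2.61 ± 0.21 in +/+ (edgeR adjusted p = 2.1e-06) and -3.27 ± 0.23 in +/t (edgeR adjusted p = 1.0e-06), with medians of 23.4 CPM in male and 185 CPM in female liver.

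Gstm3 and Gstm1 were higher in +/+ males with overlapping ranges. Gstm3 had 37.3 to 134 CPM in +/+ males (median 70.2) and 21.3 to 58.8 CPM in +/+ females (23.0), a log2 difference of 1.24 ± 0.34 SE (edgeR adjusted p = 0.035). The adjusted p was 0.052 to 0.076 when any of male libraries 2, 5 and 7 or female libraries 1, 3, 4 and 5 was left out, and 0.063 with no filter on low counts. In +/t the difference was 1.0 ± 0.40 and was not called (edgeR adjusted p = 0.13, and 0.034 with the litter as a block). Gstm1 had 911 to 1403 CPM in +/+ males (median 1195) and 710 to 995 CPM in +/+ females (822), a log2 difference of 0.43 ± 0.11 (edgeR adjusted p = 0.014, and 0.17 with the litter as a block). In +/t it was 0.32 ± 0.10 (edgeR adjusted p = 0.055), with 0.030 when male library 4, which has the excess of even counts, was left out, 0.021 without female library 2 and 0.025 in DESeq2.

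Gsta4, in +/t livers, was lower in males, with 37.0 to 51.5 CPM (median 44.3) against 45.3 to 70.7 CPM (60.7) in +/t females. The log2 difference was -0.43 ± 0.09 SE (edgeR adjusted p = 0.0058, and 0.085 with the litter as a block). In +/+ it was -0.34 ± 0.12 and was not called (edgeR adjusted p = 0.079). That p was 0.0099 without female library 5, 0.047 without male library 6 and 0.042 with male pair 3 exchanged between genotypes. Whether the sex differences themselves differ between genotypes was not tested. Gsta2, Gsta3 and Gstm2 were not called in either genotype, with log2 differences between -0.27 and 0.04 and edgeR adjusted p from 0.29 to 0.97.

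**Figure D3:**
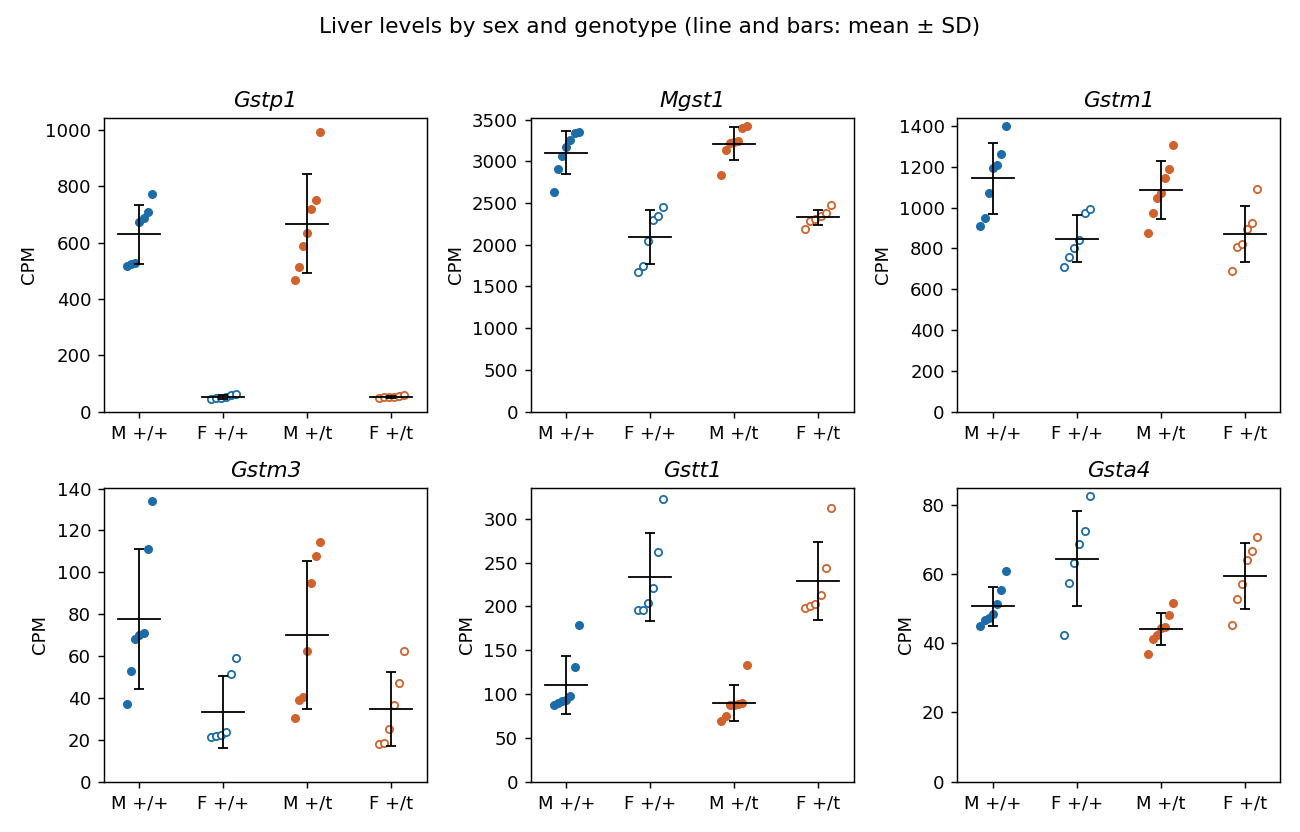
CPM in liver of 6 members by sex and genotype, with 1 point per library and the mean ± SD. The sexes do not overlap for Gstp1, Mgst1 and Gstt1 in either genotype, and they overlap for Gstm1, Gstm3 and Gsta4.

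Other genes of glutathione chemistry were called in both directions between male and female liver. Over all genes tested, 12.5% were called in +/+ livers and 12.1% in +/t livers. Of 15 other glutathione transferases and related enzymes tested in +/+, 2 were higher in males (Gstp2 and Gstm6) and 3 lower (Gstt3, Mgst3 and Gstk1). In +/t, of 14 tested the same genes passed in the same directions, and Gsto1 was lower too. Mgst3, a microsomal enzyme, differed by -1.18 ± 0.20 SE in +/+ (edgeR adjusted p = 0.0013). Of 14 genes of glutathione synthesis and recycling, 1 was higher and 3 lower in +/+ males, and none was higher and 2 lower in +/t males, with Ggct, which breaks down gamma-glutamyl peptides, lower in both (-0.57 and -0.85). The rate-limiting synthesis enzyme Gclc was not called (0.19 in +/+, edgeR adjusted p = 0.28). Of 19 genes of the Nrf2 system, 4 were higher and 4 lower in +/+ males, and 3 higher and 4 lower in +/t males. Ephx1, an epoxide hydrolase, was higher by 0.91 in +/+ and Nqo1, a quinone reductase, lower by -0.74. Among 12 genes of a list that holds the xenobiotic receptors CAR and PXR and their targets, 1 was higher and 4 lower in males of each genotype. For glutathione peroxidases and partners the calls were 2 higher and 1 lower of 12 in +/+ and 1 higher of 13 in +/t.

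Genes known for sex bias in mouse liver followed the labels: 15 of 16 male-biased genes were higher in +/+ males and 14 of 16 in +/t males. Of 18 female-biased genes, 18 and 17 were lower in males. The summed level of 8 hepatocyte markers was 65400 to 104200 CPM in +/+ males and 103200 to 131000 CPM in +/+ females, with 73570 to 86620 CPM in +/t males and 89240 to 127300 CPM in +/t females. Alb was lower (-0.70) and Apoa1 higher (0.38) in +/+ males. In +/t males Alb (-0.53), Hpd (-0.55) and Tat (-0.78) were lower and Apoa1 (0.58) and Serpina1a (0.44) higher. Cps1, Fgb and Ttr were not called there. Alb weighs most in the sum, with a mean log2 CPM of 16.1 in +/t livers against 12.4 for Apoa1, the next marker. Of 6 markers each of macrophages and endothelial cells, 2 and 2 were lower in +/+ males and none was called in +/t. In whole tissue, fewer cells of a type and less RNA per cell cannot be told apart, and the part of cell composition in the differences was not tested.

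In brain no member was called by sex. Of 7 members tested in +/+ and 8 in +/t, edgeR called 0 in either genotype, DESeq2 called 0, and 0 had an unadjusted p under 0.05, against 3.29% of all genes tested in +/+ and 4.25% in +/t. The log2 differences ran from -0.21 to 0.17, and 0.0392% and 0.0394% of all genes tested were called.

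Carriers were compared with their siblings tissue by tissue. In male liver, the comparison in which Gsta2 had been seen to differ before the list was drawn up, 0.159% of all genes tested were called. Gsta2 was at 14.8, 38.4, 26.6, 19.6, 15.4, 42.1 and 20.5 CPM in the +/+ males of pairs 1 to 7, and at 9.004, 26.8, 17.8, 10.8, 12.3, 29.0 and 18.2 CPM in their +/t brothers. The carrier was lower in each of the 7 pairs, as for 0.751% of all genes, while the groups overlapped, and the fitted log2 difference was -0.53. Since Gsta2 was known to differ here when the list was drawn up, these values are a description and no support. With the genotype labels of pair 3 exchanged it was -0.36. The other 8 members measured there had log2 differences from -0.28 (Gstt1) to 0.06 (Gstp1).

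In female liver, Gsta2 was at 11.5, 53.8, 12.3, 20.2, 27.1 and 31.8 CPM in the +/+ females of pairs 1, 2, 3, 4, 5 and 7, and at 7.76, 42.7, 11.7, 12.5, 15.6 and 26.5 CPM in their +/t sisters. The carrier was lower in 6 of 6 pairs, as was the case for 1.96% of all genes, and the groups overlapped widely. The log2 difference was -0.45 ± 0.10 SE and did not pass (edgeR adjusted p = 0.23, with 0.13 to 0.9998 over 11 alternatives). No member was called in female liver by edgeR or DESeq2, where 0.107% of all genes tested were called by edgeR, and Gsta2 was the only member with an unadjusted p under 0.05, as 6.74% of all genes tested had. The other 8 tested had log2 differences from -0.11 to 0.16.

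**Figure D4:**
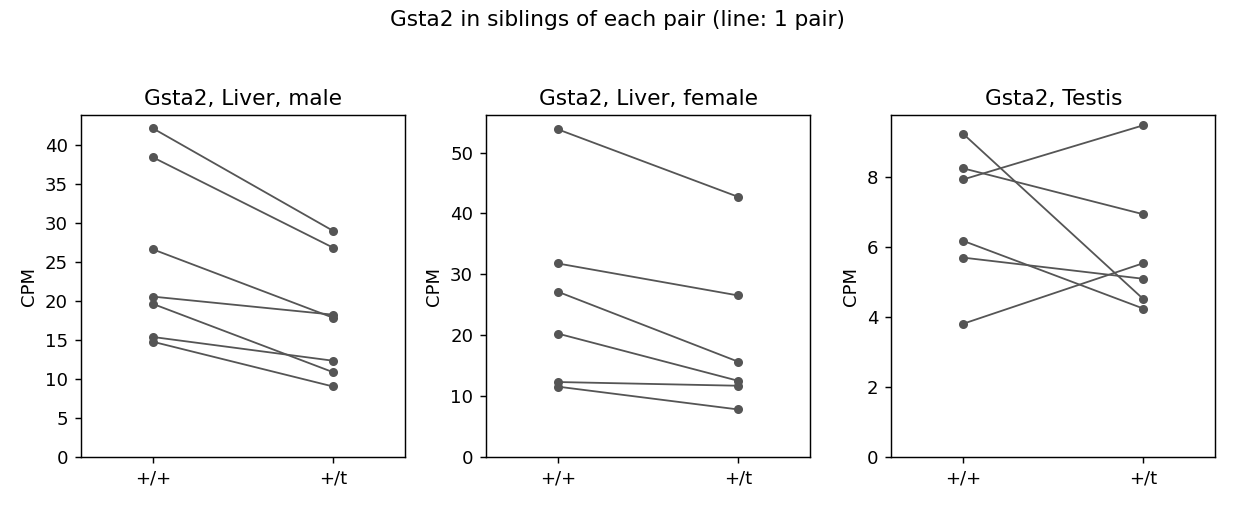
Gsta2 in CPM in +/+ and +/t siblings, with 1 line per pair, for male liver, female liver and testis. The line falls in each of the 7 male and 6 female liver pairs and in 4 of the 6 testis pairs.

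In testis 2 of the 9 members tested were lower in carriers and none was higher. Of all genes tested 1.58% were called, 1.06% as higher and 0.516% as lower in carriers. The median log2 difference of the members was -0.19, against 0.00 over all genes. Gstm1 had 186 to 347 CPM in +/+ (median 244, n = 6) and 170 to 280 CPM in +/t (189, n = 6). The groups overlapped, but the carrier was lower in each of the 6 pairs, as were 4.79% of all genes. The log2 difference was -0.23 ± 0.03 SE (edgeR adjusted p = 0.0013), a fold of 1.18, and without the pair in the model the adjusted p was 0.91.

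Mgst2 had 5.62, 5.17, 6.76, 4.13, 6.18 and 6.28 CPM in the +/+ testes of pairs 1, 2, 3, 4, 6 and 7, and 4.33, 3.79, 3.81, 2.99, 3.95 and 3.72 CPM in their +/t brothers. The carrier was lower in each of the 6 pairs, and only the +/+ library of pair 4 fell within the carriers' range. The log2 difference was -0.57 ± 0.11 SE (edgeR adjusted p = 0.015), a fold of 1.49. The adjusted p was 0.081, 0.052 and 0.060 without pairs 3, 6 and 7, was 0.18 with pairs 2 and 3 both left out for their even counts, and was 0.074 without the pair in the model. These are low counts, 34 to 108 per library. Mgst2 overlaps Gm37261 on the same strand by 1101 bases, and that gene had at most 0.674 CPM in testis.

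Gstm2 (-0.19 ± 0.05 SE, edgeR adjusted p = 0.13) and Mgst1 (-0.23 ± 0.06, edgeR adjusted p = 0.085) were lower in 5 of 6 pairs each and did not pass. Gstm2 passed without pair 2 (0.027) and in DESeq2 (0.022), and Mgst1 without pair 1 (0.021). Gsta2, Gsta3, Gsta4, Gstp1 and Gstt1 had log2 differences from -0.19 to 0.05. Among other genes of the pathway lists, the mu-class gene Gstm5 was the only call, higher by 0.10 ± 0.02 (edgeR adjusted p = 0.035).

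Markers of other cells varied between the same testes. The summed level of 8 hepatocyte markers was 55.6, 11.1, 4.59, 196, 60.6 and 79.2 CPM in the +/+ testes of pairs 1, 2, 3, 4, 6 and 7, and 108, 3.97, 15.4, 6.15, 2.78 and 3.96 CPM in the +/t testes. None of the 5 markers tested was called, with a median log2 difference of -1.004. In liver itself Mgst2 was at most 0.212 CPM, whereas Gstm1 was at 687.5 CPM or more, Gstm2 at 73.5 or more and Mgst1 at 1678 or more. The summed level of 6 Leydig cell markers was 683 to 1420 CPM in +/+ and 683 to 923 CPM in +/t, with a median log2 difference of -0.24 and none of the 6 called. Their part in the testis differences was not tested.

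**Figure D5:**
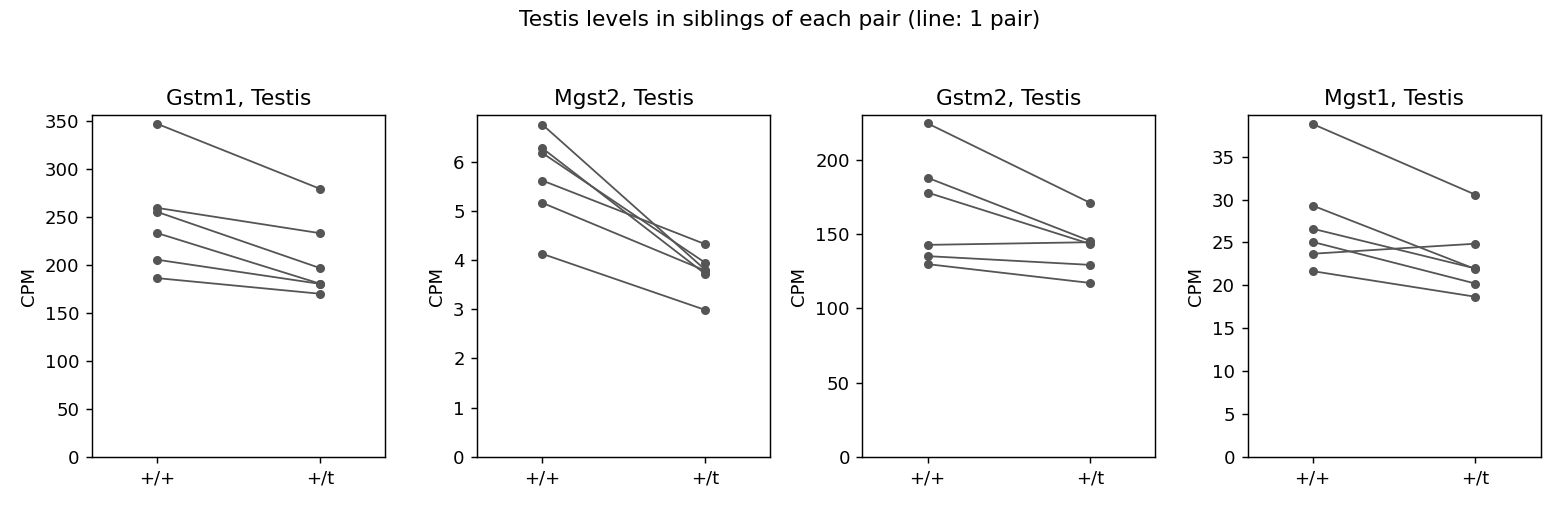
Testis levels in CPM of 4 members in +/+ and +/t siblings, with 1 line per pair (n = 6). The lines of Gstm1 and Mgst2 fall in every pair, and those of Gstm2 and Mgst1 in 5 of 6 pairs.

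In ovary and brain edgeR and DESeq2 called 0 members by genotype. Of all genes tested edgeR called 0.104% in ovary, 0.264% in male brain and 0.245% in female brain. In ovary the 9 members tested had log2 differences from -0.19 to 0.28 and none had an unadjusted p under 0.05, against 2.49% of all genes tested. In male brain 2 of 7 had one, against 8.38% of all genes tested. Gstp1 was at 62.9, 70.0, 50.6, 48.2 and 55.4 CPM in the +/+ males of pairs 1, 2, 3, 5 and 6 and at 70.1, 75.5, 60.7, 57.2 and 59.5 CPM in their +/t brothers. The carrier was higher in each of the 5 pairs, as for 2.69% of all genes, by 0.19 ± 0.05 SE on the log2 scale (edgeR adjusted p = 0.30). In female brain its log2 difference was -0.00 ± 0.05, and the difference between the sexes was not tested. Mgst1 was higher in 5 of 5 male brain pairs (0.21 ± 0.08, edgeR adjusted p = 0.57), and Gsta3 was lower in 5 of 5, as for 5.43% of all genes (-0.50 ± 0.26, edgeR adjusted p = 0.62). In female brain 1 of 7 had an unadjusted p under 0.05, against 5.48% of all genes tested. It was Gstm1, higher in 6 of 7 pairs (0.23 ± 0.07, edgeR adjusted p = 0.73). In 1 +/+ male brain library, that of pair 2, 8 markers of nasal epithelium summed to 1450 CPM, against 1.51 to 81.2 CPM in the other male brains.

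The members varied together in liver to different degrees. After the mean of each sex and genotype group was subtracted, Gstm3 and Gstt1 correlated at r = 0.68 over the 26 liver libraries, Gstm1 and Gstm3 at 0.63, Gsta2 and Gstm3 at 0.60 and Gsta2 and Gstm1 at 0.59. Gsta2 and Mgst1 went in opposite directions (r = -0.41). Gstp1 was close to none of the mu-class members (0.06 to 0.12). These values are a description, since the libraries include siblings and share their scaling.

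Among 11918 genes with a mean of at least 1 CPM in liver, those most like each member are given below. They are the highest of many correlations over 26 libraries, and how high unrelated genes would reach was not tested. Psen2 (r = 0.76), Dusp12 (0.74) and Pcdhgb5 (0.72) were most like Gsta2, and Pgk1 and Dbt (0.78 each) were among those most like Gsta3. Aph1a, Prom1 (0.71 each) and Nnmt (0.68) were most like Gsta4. Il17rc (0.80), Sgta (0.77) and Ogdh (0.74) were most like Gstm1, and Ogdh (0.82), Ppdpf and Letm1 (0.79 each) most like Gstm3. Mgat4b (0.69), Gpx4 (0.67) and Fth1 (0.65) were most like Gstm2. Plppr2 (0.74), Gm21970 and Bco2 (0.73 each) were most like Gstp1. Fam207a (0.80), Rab5c and Tomm40 (0.74 each) were most like Gstt1, and Acox3, Psmb1 (0.71 each) and Serpina3c (0.70) most like Mgst1. Ogdh, a subunit of a mitochondrial dehydrogenase, was the only gene named for more than 1 member.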

How the data were processed

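Whole brain, liver, ovary and testis were profiled by RNA-seq. Per the labels' protocols, gonad and liver RNA was extracted with Trizol and columns and brain RNA by phenol-chloroform, so brain differs from other tissues in extraction too, and the kit was stranded. The authors deposited whole-number counts, with 1 value for each of 25567 gene identifiers. GRCm38, STAR 2.5.1b and featureCounts are named in the submitters' processing notes. For the strand setting and annotation release, nothing is given in the sources used here. GENCODE M21 named 25472 of the identifiers.

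Groups, sexes and pairs came from the labels. Genes were kept by filterByExpr (minimum count 10), scaled by TMM and tested with edgeR 4.0.16 (quasi-likelihood, robust prior, R 4.3.3), with Benjamini-Hochberg adjustment over all genes tested and a threshold of 0.05. Genotype was tested per tissue and sex with the sibling pair as a block, and sex per tissue and genotype with no block. The pairs are siblings by label. As a check, the correlation of their deviations from group means was 0.0522 to 0.547 for male brain, 0.186 to 0.743 for female brain, 0.158 to 0.451 for male liver, 0.0832 to 0.315 for female liver, -0.267 to 0.369 for ovary and 0.235 to 0.394 for testis. CPM use all gene counts, without TMM. Ratios within pairs have 0.5 CPM added. Standard errors are the log2 fold change over the root of the F statistic. Correlations used log2 CPM with a prior count of 2, for members with a mean of at least 10 CPM in liver. Transcripts were compared with blastn 2.17.0 (at least 100 bases at 85% identity).

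The members, the lists and the tests were chosen with earlier results of these data known. All members were named in each comparison, along with up to 4 called genes of each other list, by smallest p, and the 3 genes most correlated with a member in liver. Of the latter, 1 gene is not reported here. Gclc, Gstp3 and the single hepatocyte markers were named after their values were seen. The alternatives were DESeq2 1.42.0, relative log expression factors, no low-count filter, the pair block removed or a litter block added, each pair or library left out, even-count libraries left out, male liver pair 3 exchanged or left out, and, added after the data were seen, no robust prior. Simulated data had 100 genes changed 1.5-fold and another 100 changed 2-fold. Of those changed 1.5-fold, edgeR called 79% by genotype in testis (15509 genes), 65% in female liver (12105 genes) and 40% in ovary (15324 genes). By sex in +/+ liver (12092 genes) it called 56%. Of those changed 2-fold it called 92%, 96%, 77% and 82%, and the unchanged genes called were 18, 13, 6 and 9, each in that order. Changes under 1.5-fold were not simulated.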

Additional observations from a re-analysis of the deposited data

Results flagged for a closer look

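Of 99 groups of 5 to 7 libraries in which a member had a median of at least 1 CPM, 6 held a library far from the rest of its group; chance gives about 1 in 20. For Gsta4 in brain this was the animal of pair 5 in 3 groups. The +/+ female had 21.8 CPM against 41.5 to 55.04 in the others, her +/t sister 31.9 CPM against 45.4 to 52.5, and the +/+ male of the male pair 5, from another litter, 36.7 CPM against 44.3 to 47.1. Gstt1 was at 133 CPM in the +/t male liver of pair 2, against 69.4 to 89.6 in the others. Gstp1 was at 62.3 CPM in the +/+ ovary of pair 2, against 37.6 to 46.6. Gsta3 was at 6.80 CPM in the +/t testis of pair 3, against 10.9 to 12.6, and that library is among those with an excess of even counts. No cause was tested for any of these.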

How the results depend on the processing

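Gstp1, Gstt1 and Mgst1 kept the direction and the call of their sex difference in liver in both genotypes under all 19 (+/+) and 20 (+/t) alternatives. The members called by sex numbered 4 to 6 in +/+ and 4 to 5 in +/t with 1 library left out, and 0 in brain. In testis, the count of 2 members was 0 with no pair block, 1 without the even-count pairs and 1 to 3 with 1 pair left out (1 without pair 3, 6 or 7). It was 0 with any pair left out in brain, female liver and ovary.

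Counts over all genes moved more. With DESeq2 they were 52 in male liver (19 in the main test), 37 in female liver (13), 46 in ovary (16) and 12 by sex in +/t brain (6). With no low-count filter they were 82 in male brain (40), 77 in male liver and 28 in female liver. Without the replicate block of the sibling pair they were 19 in male brain, 21 in female brain (37) and 77 in testis (245). With the litter as a replicate block for the sex comparisons they were 605 in +/+ liver (1512), 633 in +/t liver (1460) and 15 in +/t brain; males and females shared only 4 litters in liver. Deviations of a litter's males and females correlated at 0.0106 to 0.234 there. The block changed no other call of a named member than those given with the results. Without the pairs that hold an even-count library they were 12 in female brain, 8 in male liver and 81 in testis. With pair 3 exchanged, male liver had 0, and with no robust prior, 9. With 1 pair or library left out the counts were 29 to 39 in male brain, 23 to 33 in female brain (pairs 4, 6 and 8 moved it most), 6 to 12 in male liver (any pair), 7 to 11 in female liver (pairs 1 and 4), 3 to 16 in ovary (pairs 1, 3, 4, 6 and 8) and 134 to 227 in testis (pairs 3, 4, 6 and 7). By sex they were 1146 to 1691 in +/+ liver, 1209 to 1445 in +/t liver, 6 to 7 in +/+ brain and 5 to 7 in +/t brain. The causes were not tested.

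The 7 members highest in liver, the share of Mgst1 in male liver (47.9%, and 49.2% without division by length) and the correlation of Gstm3 with Gstt1 (0.65 by Spearman, 0.67 without male pair 3) held. The share of Gsta3, with 4344 annotated exon bases, depended on the division. It was 24.7% without and 11.6% with it in female liver, and 17.8% and 8.12% in male liver. Gsta3 came next after Mgst1 in liver without the division, and Gstm1 did with it. Depth limits the lowest members: Mgst2 in liver and Gstm3 outside it had at most a few counts per library.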

Other observations

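Gstp3, a pi-class gene beside Gstp1 that is not among the 10 members, took separate levels in liver. In +/+ males of pairs 1 to 7 it was at 345, 18.3, 328, 15.6, 315, 13.3 and 323 CPM, and in their +/t brothers at 13.6, 10.7, 384, 377, 10.5, 16.1 and 17.2 CPM. In +/+ females of pairs 1, 2, 3, 4, 5 and 7 it was at 10.6, 19.6, 319, 358, 19.0 and 16.2 CPM, and in their +/t sisters at 23.6, 19.2, 691, 697, 18.0 and 15.2 CPM. No liver lay between 23.6 and 315 CPM or between 384 and 691 CPM, and siblings fell on different sides of a gap in male pairs 1, 4, 5 and 7 and female pairs 3 and 4. Gstp3 was under 1 CPM in brain, ovary and testis.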
